A study of Homo sapiens with 6 samples.

Results

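The 33 genes described here are targets of the transcription factor p53, listed by name, and all 33 were among the 20683 gene symbols of the count tables. They were read in HT-1080, a long-established fibrosarcoma cell line of human origin that carries an activated NRAS allele. The 3 inhibitor libraries came from dishes treated for 24 h with SLV-8472-01, an IRAK4 inhibitor whose concentration the labels give as 5 mM, a unit not checked here. The 3 DMSO libraries came from dishes given 0.1% DMSO for 24 h, and the series calls the 3 libraries of each condition biological replicates. IRAK4 is the kinase that carries signals from Toll-like and interleukin-1 receptors. The cells are 1 line, so the p-values below cover the spread between dishes of that line. In bulk RNA, fewer cells expressing a gene and less RNA per cell cannot be told apart.

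p53 accumulates when DNA is damaged or growth is forced, and it switches on genes that stop the cell cycle, repair DNA, start apoptosis and restrain p53 itself. MDM2, a ubiquitin ligase, closes the main feedback loop by marking p53 for degradation. Many p53 targets have other inputs as well. ATF4, the transcription factor of the integrated stress response, and its partner CHOP can induce GADD45A, GDF15 and TNFRSF10B. Growth factor signalling through ERK induces BTG2, PLK2, PLK3 and GADD45B as immediate-early genes. The comparison of inhibitor with DMSO therefore asked which p53 targets differed, and whether those that fell were only the 7 that ATF4 or ERK also induce. The assignment to these 7 is background knowledge, made with earlier results of these data known, and no input to a gene was measured here.

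Library totals lay between 9162281 and 13184553 counts. DMSO 3 stood apart from the other DMSO libraries, as chi-square tests of the counts over genes, divided by their degrees of freedom, gave 38.8 for DMSO 3 and DMSO 1 and 25.9 for DMSO 3 and DMSO 2, beside 10.4 for DMSO 1 and DMSO 2. Across 9189 genes, transcript GC content had a Spearman correlation of -0.493 with the deviation of DMSO 3 from the DMSO mean, and the same value was 0.537 for DMSO 1 and 0.129 for DMSO 2. Results that rest on it are given with and without it. Of 8 marker genes of epithelial, blood and endothelial cells, 5 had no count in any library. The summed counts of all 8 were 9 to 27 in the inhibitor libraries and 10 to 14 in the DMSO libraries, nearly all from the endothelial gene PECAM1. All 5 mesenchymal markers were tested and none was called by edgeR, DESeq2 or limma-voom, with 1 of them at an unadjusted edgeR p under 0.05. Levels below are scaled CPM, a library-size-scaled count after TMM, and differences are log2 fold changes of inhibitor over DMSO from edgeR's quasi-likelihood test, with p-values adjusted by Benjamini-Hochberg over all 11216 genes tested and a threshold of 0.05.

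Of the 31 p53 targets with enough counts to be tested, 6 fell and none rose. The 6 were GDF15, GADD45A, GADD45B, PLK3, RRM2B and MDM4. This is 19.4% of the tested members, where 1.92% of all tested genes were called lower. For the absence of a riser, 1.95% of all tested genes were called higher, 2 members were higher at an unadjusted p under 0.05, and neither DESeq2 nor limma-voom called any member higher. The median log2 fold change of the 31 members was -0.233, beside -0.004 for all tested genes. Of the 7 members that ATF4 or ERK also induce, 4 fell, and their median was -0.828. Of the other 24 tested members, 2 fell, and their median was -0.173. Over all 6 libraries the fall was therefore not confined to the 7 as assigned here, since RRM2B and MDM4 are outside them. Counting MDM4 as ERK-inducible was not tried, and RRM2B would then be the only faller outside them. The calls outside the 7 also turned with single libraries. Without inhibitor 1, inhibitor 3 or DMSO 2, 0 of the other 24 members were called lower. The whole table lost calls too. In these fits 76 of 11340, 81 of 11365 and 112 of 11318 tested genes were called lower. Over all 6 libraries it was 215 of 11216. RRM2B was still at -0.67, -0.64 and -0.83 in these fits, and MDM4 at -0.73, -0.57 and -0.54. Without DMSO 3, 7 of the other 24 were called lower, beside 11.1% of all tested genes. The difference between the 7 and the rest was not tested.

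**Figure D1:**
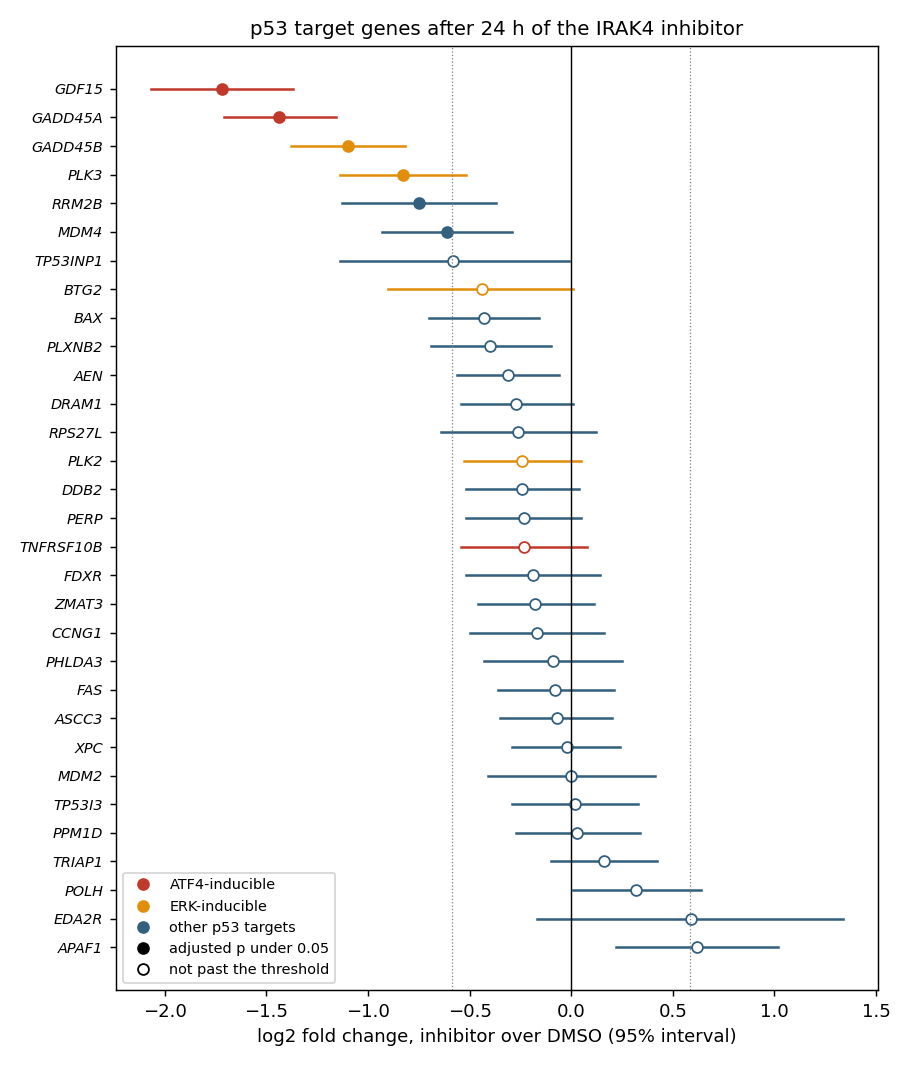
Log2 fold change of inhibitor over DMSO for the 31 tested p53 targets (x axis) with 95% intervals, ordered by size (y axis). Red marks ATF4-inducible, orange ERK-inducible and blue other members, filled symbols passed the adjusted threshold, and dotted lines mark a 1.5-fold change in either direction. The 6 filled symbols run from -1.72 for GDF15 to -0.61 for MDM4, and MDM2 sits at 0.

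The members with roles in the cell cycle and the stress response held 4 of the 6 fallers. GDF15 encodes a secreted stress cytokine of the TGF-beta family that both p53 and the ATF4 and CHOP arm induce. It had 216, 183 and 193 CPM in the inhibitor libraries, against 813, 642 and 495 CPM in the DMSO libraries. The groups did not overlap, and the DMSO values spread more widely than the inhibitor values. GDF15 fell by 1.72 (log2, SE 0.162, edgeR adjusted p = 3.72e-05), a decrease of 69.6% and the largest among the tested members.

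GADD45A encodes a small protein that binds stress kinases and cyclin-dependent kinase 1, and it was first described as induced by DNA damage. Its level was 57.5, 58.3 and 60.7 CPM in the inhibitor libraries, against 181, 143 and 153 CPM in the DMSO libraries. The 3 inhibitor values lay close together, and all were far below the lowest DMSO value. GADD45A fell by 1.44 (SE 0.129, edgeR adjusted p = 2.37e-05).

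GADD45B, its paralog, is an early-response gene that also answers to TGF-beta and NF-kB. It had 35.9, 35.6 and 34.7 CPM in the inhibitor libraries, against 86.2, 72.4 and 68.6 CPM in the DMSO libraries. The groups did not overlap. GADD45B fell by 1.1 (SE 0.131, edgeR adjusted p = 0.000317), so that both GADD45 paralogs were lower by more than 50%, at 63.1% for GADD45A and 53.3% for GADD45B.

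PLK3 encodes a polo-like kinase that is induced by growth factors and acts in the stress response. Its level was 12.3, 11.3 and 12.9 CPM in the inhibitor libraries, against 22.8, 21.8 and 19.9 CPM in the DMSO libraries. All inhibitor values were below all DMSO values. PLK3 fell by 0.83 (SE 0.144, edgeR adjusted p = 0.00575), and without inhibitor 2 its adjusted p was 0.0674.

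**Figure D2:**
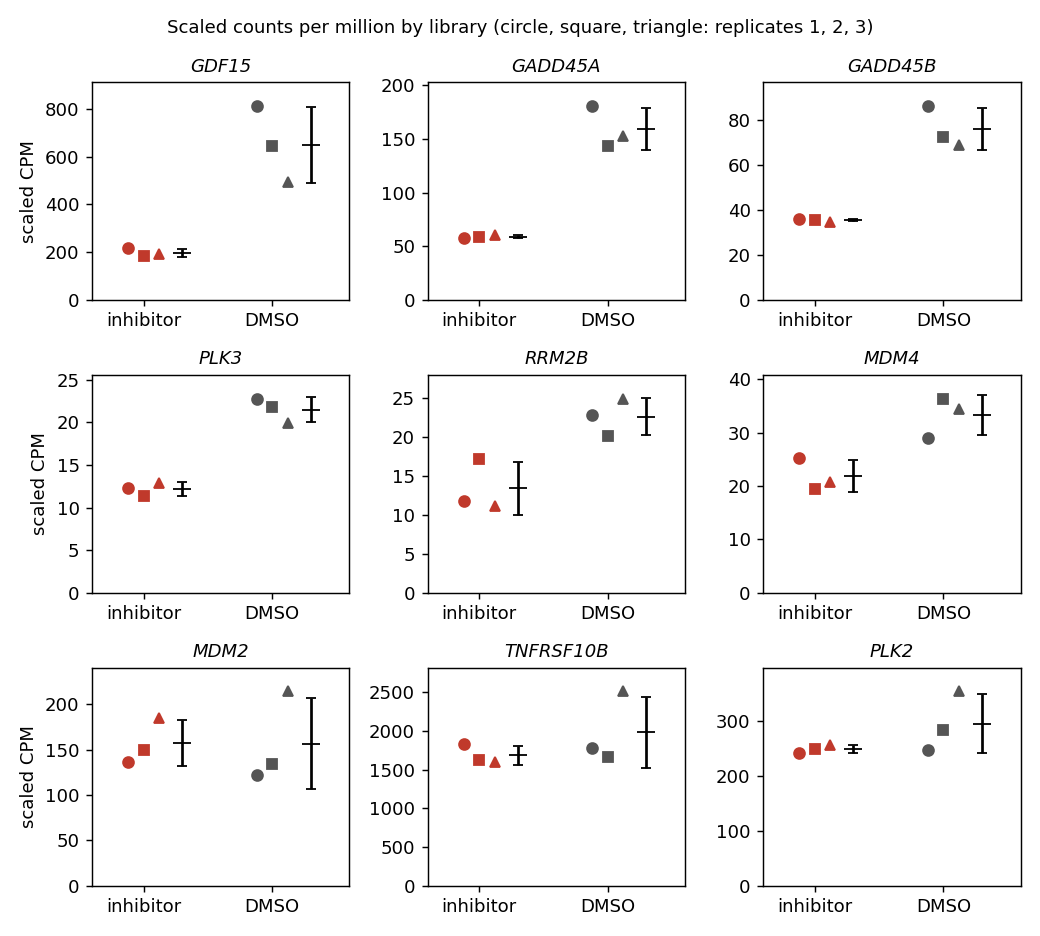
Scaled CPM (y axis, starting at 0) of 9 p53 targets in each inhibitor and DMSO library, with the mean ± SD of 3 libraries in black. The top row and PLK3, RRM2B and MDM4 show no overlap between groups. MDM2 and TNFRSF10B overlap, PLK2 does too, and DMSO 3 (triangle) is the highest DMSO library for these 3.

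The other 3 members that ATF4 or ERK also induce did not pass. TNFRSF10B encodes the death receptor DR5, a known CHOP target, and was read at 1830, 1630 and 1600 CPM in the inhibitor libraries and 1780, 1660 and 2510 CPM in the DMSO libraries. Its groups overlapped, and the high DMSO mean came from DMSO 3. The log2 fold change was -0.23 (95% interval -0.54 to 0.08, edgeR adjusted p = 0.404), or -0.04 without DMSO 3.

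PLK2, a serum-inducible polo-like kinase, had 242, 250 and 257 CPM in the inhibitor libraries, against 248, 283 and 354 CPM in the DMSO libraries. DMSO 3 was again the highest library. PLK2 was at -0.24 (interval -0.53 to 0.05, edgeR adjusted p = 0.346), and at -0.1 without DMSO 3. BTG2, an antiproliferative immediate-early gene, had 9.56, 9.27 and 12.9 CPM in the inhibitor libraries, against 19, 12.6 and 11 CPM in the DMSO libraries. For this gene DMSO 3 was the lowest DMSO library, and the groups overlapped. BTG2 was at -0.44 (interval -0.9 to 0.01, edgeR adjusted p = 0.272), and it passed without DMSO 3 at -0.6 (edgeR adjusted p = 0.0127).

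ZMAT3, an RNA-binding growth suppressor with no ATF4 or ERK assignment here, completed this role. It was at -0.18 (interval -0.46 to 0.11), the smallest difference among the 7 cell cycle and stress members.

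Only 26 of the 33 members had a promoter window in the RefSeq table used (GRCh38.p14, 250 bases before to 50 after an annotated start, several starts for some genes). The windows were searched on both strands for TGATGNAA, the core bound by ATF4 with its partners, for the cyclic AMP response palindrome TGACGTCA, for the EGR1 site GCGTGGGCG, for the ETS site CCGGAAGT, for the SRF CArG box, and for a p53 full site of 20 bases. A p53 site had no spacer, at most 2 mismatches and its 4 core C and G bases intact. TGATGNAA was found in PLK3 alone of the 26 members (3.85%), beside 4.46% of 27305 genes in the table. The PLK3 window is shown whole because PLK3 is one of the fallers and the core is its single match. It lies on the plus strand at chr1:44800127-44800426, and the capitals mark the core, which begins 133 bases upstream of the start.
PLK3: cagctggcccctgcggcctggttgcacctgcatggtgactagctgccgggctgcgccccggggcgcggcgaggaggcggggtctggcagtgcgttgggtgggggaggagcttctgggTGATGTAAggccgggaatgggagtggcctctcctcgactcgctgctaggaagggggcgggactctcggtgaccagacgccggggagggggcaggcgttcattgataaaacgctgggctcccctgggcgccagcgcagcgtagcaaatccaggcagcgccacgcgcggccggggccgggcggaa

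The p53 full site was found in 4 members, MDM2, FAS, AEN and DDB2. They make up 15.4% of the 26, beside 0.359% of all genes in the table, and since the members were listed as p53 targets this is a description of the list. The sites are shown because none of these 4 genes was called by edgeR over all 6 libraries, although AEN and DDB2 were called lower without DMSO 3. Over all 6 libraries 19.4% of the tested members and 1.92% of all tested genes were called lower, so none of 4 is no result about the site. Without DMSO 3, 11.1% of all tested genes were called lower. Each stretch holds up to 40 bases on either side of the site, all are on the plus strand, and the capitals mark the site. The MDM2 stretch is chr12:68808883-68808982, that of FAS chr10:88991269-88991368, that of AEN chr15:88621266-88621365 and that of DDB2 chr11:47214929-47215023. Mismatches to the p53 consensus numbered 2 in MDM2, FAS and AEN and 1 in DDB2.
MDM2: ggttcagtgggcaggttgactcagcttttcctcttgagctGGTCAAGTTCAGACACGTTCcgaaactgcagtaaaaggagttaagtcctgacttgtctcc
FAS: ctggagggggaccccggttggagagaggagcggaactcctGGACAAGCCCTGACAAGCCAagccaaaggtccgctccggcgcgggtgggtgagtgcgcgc
AEN: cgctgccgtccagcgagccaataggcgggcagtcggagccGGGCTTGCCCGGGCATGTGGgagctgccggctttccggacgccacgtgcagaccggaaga
DDB2: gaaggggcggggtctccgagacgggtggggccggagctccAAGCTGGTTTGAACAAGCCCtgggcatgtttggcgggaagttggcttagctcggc

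The palindrome TGACGTCA was found in PPM1D alone (3.85% of the members, 2.25% of all genes). The EGR1 site and the CArG box were found in no member window, with 0.96% and 1.6% of all genes holding them. CCGGAAGT was found in MDM4 and RPS27L (7.69%, against 4.95% of all genes). The MDM4 stretch, shown because MDM4 fell, lies on the plus strand at chr1:204516349-204516436, and the site in capitals begins 17 bases upstream of the start.
MDM4: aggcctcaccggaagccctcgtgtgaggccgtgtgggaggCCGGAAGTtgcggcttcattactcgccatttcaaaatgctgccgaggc
GADD45A and RRM2B, along with TP53INP1, TNFRSF10A, TNFRSF10B, PHLDA3 and ASCC3, are named without a window. A match is a run of letters in a window and was not tied to binding in these cells. Sites outside the windows were not searched for, so a gene without a match here may still have one.

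Among the members that feed back on p53, 1 of 5 fell. MDM2, whose stretch with a p53 site is printed above, was at 136, 150 and 185 CPM in the inhibitor libraries, against 122, 134 and 214 CPM in the DMSO libraries. The inhibitor values lay inside the range of the DMSO values, and both means were 157 CPM. Its log2 fold change was 0 (interval -0.41 to 0.41, edgeR adjusted p = 0.998), so a change of up to 0.41 in either direction is within this error. The value was 0.28 without DMSO 3 (edgeR adjusted p = 0.076) and -0.16 without DMSO 1.

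MDM4 encodes the MDM2 relative that binds p53 and blocks its activity without degrading it. It had 25.2, 19.5 and 20.7 CPM in the inhibitor libraries, against 29.1, 36.4 and 34.4 CPM in the DMSO libraries. The groups did not overlap, although inhibitor 1 and DMSO 1 were close. MDM4 fell by 0.61 (SE 0.148, edgeR adjusted p = 0.0363). The call was lost without inhibitor 1, 2 or 3 (edgeR adjusted p = 0.0728, 0.225 and 0.159), without DMSO 2 (0.165) and with library totals in place of TMM (0.0557), and it was kept without DMSO 3 (0.00167).

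PPM1D encodes WIP1, the phosphatase that resets the p53 response, and had 17.2, 17 and 17.4 CPM in the inhibitor libraries, against 15.3, 17 and 18.2 CPM in the DMSO libraries. All 6 values lay within a narrow range. PPM1D was at 0.03 (interval -0.27 to 0.34, edgeR adjusted p = 0.927). CCNG1, the cyclin G1 gene, was at -0.17 (interval -0.5 to 0.16) and at 0 without DMSO 3. TP53INP1, a nuclear p53 cofactor gene, was at -0.58 (interval -1.14 to -0.01, edgeR adjusted p = 0.244), but it rested on 72 counts summed over inhibitor and 115 over DMSO.

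The DNA repair and nucleotide supply members also held 1 faller of 5. RRM2B encodes the p53-inducible small subunit of ribonucleotide reductase, which supplies deoxynucleotides outside S phase. It was read at 11.8, 17.2 and 11.1 CPM in the inhibitor libraries, against 22.8, 20.1 and 24.9 CPM in the DMSO libraries. The groups did not overlap, and inhibitor 2 stood nearest to the DMSO libraries. RRM2B fell by 0.75 (SE 0.179, edgeR adjusted p = 0.0328), and the call was lost without inhibitor 1 (0.195), inhibitor 3 (0.159) or DMSO 2 (0.0758).

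The other 4 repair members did not pass. ASCC3, a helicase gene of alkylation repair, had 237, 213 and 287 CPM in the inhibitor libraries, against 271, 246 and 258 CPM in the DMSO libraries. Its inhibitor values lay on both sides of the DMSO values, and the log2 fold change was -0.07 (interval -0.35 to 0.2). XPC and DDB2, both of which recognise ultraviolet lesions, were at -0.02 (interval -0.29 to 0.24) and -0.24 (interval -0.52 to 0.04). POLH, a polymerase that copies past such lesions, was the highest of this role at 0.32 (interval 0.01 to 0.64, edgeR adjusted p = 0.247). Without DMSO 3, DDB2 was called lower at -0.32 (edgeR adjusted p = 0.0328) and POLH higher at 0.46 (0.00409).

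Of 11 tested apoptosis and death receptor members, none was called in either direction by edgeR. Over all tested genes, 1.92% were called lower and 1.95% higher, so none of 11 is close to the share of the whole table. At an unadjusted edgeR p under 0.05, 2 were lower and 1 was higher, beside 1035 and 1153 of all 11216 tested genes. DESeq2 called 1 lower, and limma-voom called none. BAX, the mitochondrial pore-forming effector, had the lowest value. It had 159, 165 and 164 CPM in the inhibitor libraries, against 255, 203 and 200 CPM in the DMSO libraries. The groups did not overlap, and the log2 fold change was -0.43 (interval -0.7 to -0.16, edgeR adjusted p = 0.0726). DESeq2 put its adjusted p at 0.0328, and edgeR without DMSO 3 at 0.000605.

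APAF1, the scaffold of the apoptosome, had the highest value. It was read at 11.5, 8.65 and 10.3 CPM in the inhibitor libraries, against 5.55, 7.15 and 7.2 CPM in the DMSO libraries. All inhibitor values were above all DMSO values. The log2 fold change was 0.62 (interval 0.22 to 1.02, edgeR adjusted p = 0.0796), and APAF1 was called higher without DMSO 3 (0.0106).

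FAS, the CD95 death receptor gene, was at -0.08 (interval -0.36 to 0.21), and AEN, a p53-induced nuclease gene, at -0.31 (interval -0.56 to -0.06, edgeR adjusted p = 0.151). Both carry the p53 site printed above. AEN was called lower without DMSO 3 (edgeR adjusted p = 0.0275), and FAS was not (0.556). The remaining tested members of this role were TP53I3, PHLDA3, PERP, TRIAP1, RPS27L and EDA2R. Their log2 fold changes ran from -0.26 for RPS27L to 0.59 for EDA2R, which had 47 counts summed over inhibitor and 33 over DMSO. TNFRSF10A, the DR4 receptor gene, had 0 counts summed over inhibitor and 3 over DMSO, a depth at which a difference is not detectable.

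None of the 3 tested members grouped as mitochondria, autophagy and others was called by edgeR, DESeq2 or limma-voom. By edgeR 1.92% of all tested genes were called lower and 1.95% higher. At an unadjusted edgeR p under 0.05, 1 of the 3 was lower, beside 1035 of all 11216 tested genes. PLXNB2, a semaphorin receptor gene, had 147, 123 and 161 CPM in the inhibitor libraries, against 212, 190 and 166 CPM in the DMSO libraries. The groups were separated narrowly, by inhibitor 3 and DMSO 3. PLXNB2 was at -0.4 (interval -0.69 to -0.1, edgeR adjusted p = 0.122), DRAM1, an autophagy regulator gene, at -0.27 (interval -0.54 to 0.01), and FDXR, the ferredoxin reductase gene, at -0.19 (interval -0.52 to 0.14). Without DMSO 3, PLXNB2 and DRAM1 were called lower (edgeR adjusted p = 0.0011 and 0.00776). SPATA18, a gene of mitochondrial quality control, was left untested with 15 counts summed over inhibitor and 13 over DMSO.

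**Figure D3:**
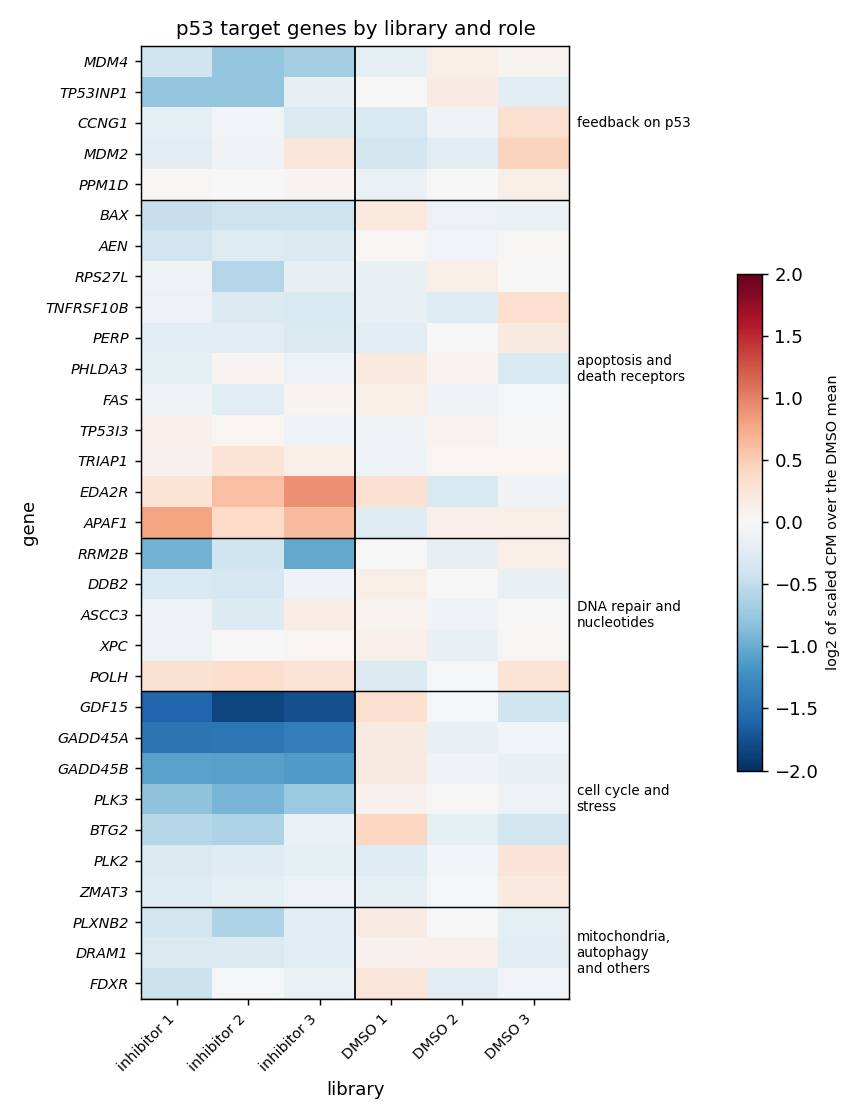
Log2 of scaled CPM over the mean of the DMSO libraries, for the 31 tested p53 targets (rows, grouped by role) in the 6 libraries (columns, inhibitor left of DMSO). GDF15, GADD45A, GADD45B and PLK3 are below the DMSO mean in all 3 inhibitor libraries, and so are others such as RRM2B, MDM4, PLK2 and BTG2. Apoptosis members such as BAX, AEN and PERP are also below it in all 3, while others such as APAF1 and TRIAP1 are above it.

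Of the 25 tested members that did not pass, 20 had an interval that stayed above a 1.5-fold fall and 24 an interval above a 2-fold fall. In 17 of the 25, the interval lay within 1.5-fold in both directions. Of all 10782 tested genes not called, 8326 stayed above a 1.5-fold fall, 10262 above a 2-fold fall and 6176 within 1.5-fold. The member counts are therefore mostly a measure of the precision of the whole table. These intervals are for each gene alone and were not adjusted for the number of genes. Read without a threshold, 11 of 31 members had all inhibitor values below all DMSO values (35.5%), where 11.8% of all tested genes did, and 3 had all inhibitor values above (9.68%), where 13.7% did. Among the 25 not called, 5 were fully below and 3 fully above, beside 1113 and 1317 of the 10782 tested genes not called.

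Leaving out DMSO 3 changed the count most. Without it, 12 members were called lower and 2 higher, and these included the same 6 fallers. In that comparison 11.1% of all 11386 tested genes were called lower and 10.8% higher, so the whole table gained calls as well. The 12 comprised 5 of the 7 members that ATF4 or ERK also induce and 7 of the other 24. Their names were the 6 above with AEN, BAX, BTG2, DDB2, DRAM1 and PLXNB2, and the 2 higher were APAF1 and POLH. GDF15, GADD45A and GADD45B were at -1.9, -1.48 and -1.18 without DMSO 3. With each library's GC trend removed, the same 6 members were called lower, and GDF15, GADD45A, GADD45B and PLK3 were at -1.65, -1.4, -1.04 and -0.78.

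**Figure D4:**
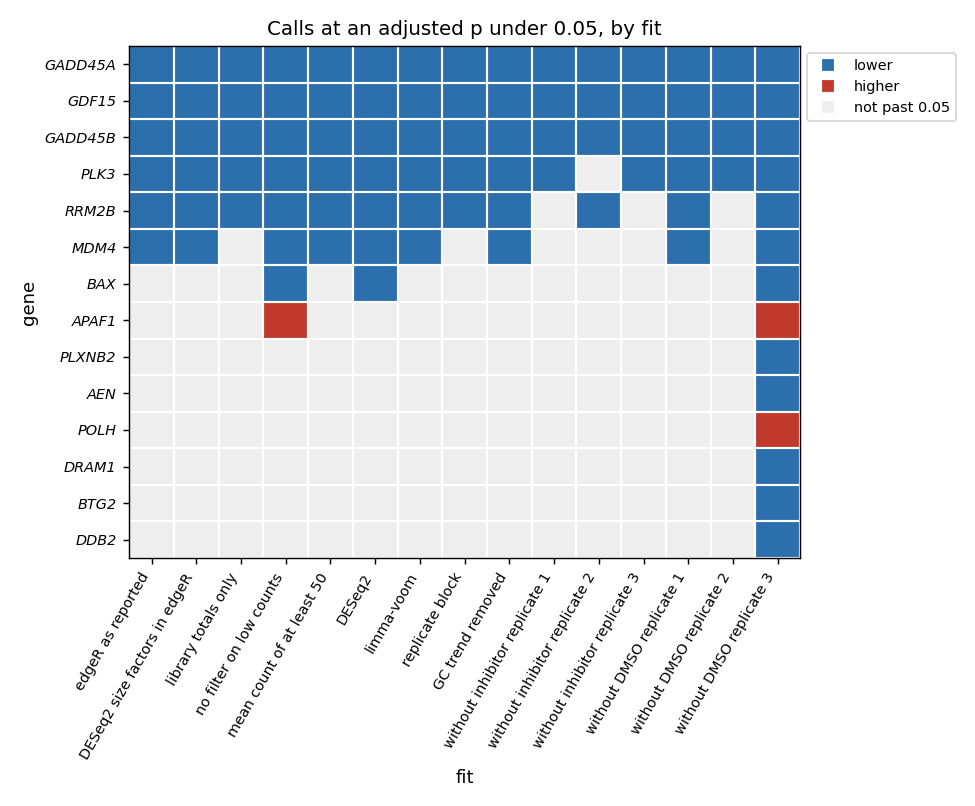
Members called at an adjusted p under 0.05 in at least 1 of 15 fits (rows: 14 genes; columns: the reported fit and 14 alternatives), blue for lower and red for higher in inhibitor. GADD45A, GDF15 and GADD45B are blue in all 15 columns, PLK3 in all but the one without inhibitor 2, and 6 genes are coloured only in the column without DMSO 3.

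Other genes of the pathway were counted from lists. CDKN1A, which encodes the cell cycle inhibitor p21, had 200, 215 and 176 CPM in the inhibitor libraries, against 291, 259 and 206 CPM in the DMSO libraries. The groups overlapped, with inhibitor 2 above DMSO 3. CDKN1A was at -0.36 (interval -0.66 to -0.05, edgeR adjusted p = 0.178), and it passed without DMSO 3 at -0.5 (0.000705). Of 16 tested regulators of p53 none was called in either direction by edgeR, DESeq2 or limma-voom, and 2 were higher at an unadjusted edgeR p under 0.05. Their median log2 fold change was 0.087. Over all tested genes, edgeR called 1.92% lower and 1.95% higher.

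Of 26 further tested p53-induced genes, 4 fell by edgeR (15.4%, beside 1.92% of all tested genes). None rose, where 1.95% of all tested genes did, and 1 was higher at an unadjusted edgeR p under 0.05. DESeq2 and limma-voom also called 4 lower and none higher, and the median log2 fold change was -0.157. The 4 called by edgeR, named after their values were seen, were SESN2 at -2.09, BBC3 at -1.02, PMAIP1 at -0.99 and LIF at -0.8. SESN2 is also a known ATF4 target and stands in that list as well. BBC3, PMAIP1 and LIF were not sorted by ATF4 or ERK input, so they are not shown to lack one. BBC3 and PMAIP1 encode pro-apoptotic BH3-only proteins, PUMA and NOXA, and LIF encodes a cytokine.

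Lists of genes taken as readouts of the other inputs, chosen with earlier results of these data known, were counted in the same way. Of 10 ATF4 output genes, 7 fell (70%, beside 1.92% of all tested genes), with a median log2 fold change of -1.82. ATF3 had 3.27, 4.1 and 3.12 CPM in the inhibitor libraries, against 17.4, 15.6 and 18.7 CPM in the DMSO libraries, and fell by 2.29 (SE 0.182, edgeR adjusted p = 1.48e-05). Of 9 tested ERK output genes, 2 fell by edgeR (22.2%), with a median of -0.486. At an unadjusted edgeR p under 0.05, 7 were lower, as were 1035 of all 11216 tested genes. EGR1 had 4.49, 6.51 and 4.37 CPM in the inhibitor libraries, against 98.3, 110 and 60.5 CPM in the DMSO libraries, and fell by 4.12 (SE 0.238, edgeR adjusted p = 6.93e-07). In both lists every tested gene had a negative log2 fold change, as did 5673 of all 11216 tested genes. Whether ATF4 or ERK activity contributed to the values of GDF15, GADD45A, GADD45B or PLK3 was not tested.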

How the data were processed

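Per the labels' protocols, libraries came from an amplicon panel (Ion AmpliSeq Transcriptome); the sequencer was an Ion Torrent Proton. The values the authors deposited are raw read counts for each gene symbol, not normalized. HTSeq, DESeq2 1.20.0 and hg19 appear without a role in the submitters' processing notes, and the aligner was not given in the sources used here. No molecular identifiers are named, so counting limits cover counting error only.

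Genes passing filterByExpr (minimum count 10, total 15; 11216 genes) were scaled by TMM and fitted with edgeR 4.0.16 in R 4.3.3 on the group alone. The SE is the absolute log2 fold change over the square root of F, and the 95% interval uses the t distribution. Alternatives used DESeq2 1.42.0, limma-voom (limma 3.58.1), other scaling and filters, a replicate block, GC offsets (local regression, span 0.5; transcript GC content for 98.9% of tested genes) and leaving out each library. DESeq2, limma-voom and edgeR (as reported, with DESeq2 size factors, no filter, the block, GC offsets or DMSO 3 left out) were tested on simulated counts with known changes, and the other alternatives were not.

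Members, lists, classes and the naming rule were chosen with earlier results of these data known. The rule gives values for members called, the 7 with an ATF4 or ERK input, MDM2, MDM4, PPM1D and the highest-count member of each role, and CDKN1A, EGR1 and ATF3; values of members beyond the rule (the lowest and highest of each role, calls without DMSO 3, and others such as FAS, XPC, CCNG1 and TP53INP1) were chosen after they were seen. Promoters come from RefSeq on GRCh38.p14, another build than the counts, matched by symbol. A gene that the rule also named is not reported here.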

Additional observations from a re-analysis of the deposited data

How the results depend on the processing

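GADD45A, GADD45B and GDF15 were called lower in all 14 alternatives, PLK3 in 13, RRM2B in 11 and MDM4 in 8. Leaving out 1 library at a time, 4 to 12 members were called lower and 0 to 2 higher. Those lower included 3 to 5 with an ATF4 or ERK input and 0 to 7 of the others. Over the same fits, 61 to 1269 genes of the whole table were called lower and 38 to 1227 higher. The medians then ran from -0.269 to -0.219 for all members and from -0.203 to -0.114 for the others. Library totals only gave 1 lower among the others and medians of -0.173 and -0.113, and the replicate block also gave 1 lower among the others, where MDM4 lost its call (edgeR adjusted p = 0.0593). Without a filter on low counts, 1 member was higher. Counting MDM2 as ERK-inducible changed neither count. Same-numbered libraries did not deviate together (correlations -0.0414, -0.0378 and -0.0882), so the numbers were not taken as pairs.

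In the lists, leaving out 1 library gave 2 to 7 lower and 0 to 3 higher of the further p53-induced genes. The regulators of p53 had 0 to 1 lower and 0 to 2 higher. The DREAM list had 0 to 10 higher and the ERK output 2 to 7 lower. The whole-table ranges given above belong to the same fits. Library totals gave 1 higher regulator, a mean count of at least 50 gave 0 higher in the DREAM list, and ERK output had 6 lower with no filter, 5 with DESeq2 and 6 with the GC trend removed.

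Signs turned for 7 members near 0. MDM2 was at -0.01 with DESeq2 size factors, with no filter, with a mean count of at least 50 and with DESeq2, and at -0.03 with the GC trend removed; XPC was at 0.04 with library totals. Leaving out 1 library gave -0.16 to 0.28 for MDM2, -0.04 to 0.08 for PPM1D, -0.02 to 0.07 for TP53I3, -0.09 to 0.03 for XPC, -0.22 to 0.02 for PHLDA3, -0.31 to 0 for CCNG1 and -0.2 to 0.02 for ASCC3. The causes were not tested.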

Other observations

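Genes that p53 lowers through p21 and the DREAM repressor complex were counted as well, from a list of 12 cell cycle genes. All 12 had a positive log2 fold change, from 0.2 to 0.59, with a median of 0.286. Of all 11216 tested genes, 5543 had a positive value. By edgeR 1 rose (8.33%, beside 1.95% of all tested genes). That gene, CDC20, which activates the ubiquitin ligase of anaphase and is named after its value was seen, had 126, 132 and 125 CPM in the inhibitor libraries, against 84.6, 103 and 65.7 CPM in the DMSO libraries (log2 fold change 0.59, SE 0.151, edgeR adjusted p = 0.0439). The call of CDC20 was lost, leaving 0 of the 12, without inhibitor 1, 2 or 3. It was also lost without DMSO 1 and with a mean count of at least 50. Without inhibitor 1, 2 or 3, 49 of 11340, 38 of 11376 and 69 of 11365 tested genes were called higher. Without DMSO 3, 10 of the 12 were called higher, beside 10.8% of all tested genes.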
